A study of Homo sapiens with 3 samples.

Results

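The chromosome 19 microRNA cluster was followed in 632 CpGs between positions 54140000 and 54300000 of chromosome 19 (GRCh37), out of 2744301 CpGs tested in all. These were all CpGs of the interval that had at least 5 reads in each of 3 libraries. In any library, 661 CpGs of the interval were seen, out of 3225751 seen in all. The interval was divided into 4 stretches. The island from 54150500 to 54155700, which starts the cluster, held 105 CpGs of 107 seen. The body after it held 473 of 495, the last 20 kb held 45 of 48, and the stretch before the island held 9 of 11. The last 20 kb was set aside for MIR371A, MIR372 and MIR373, which follow the cluster. Positions of single microRNA genes in GRCh37 were not used here, so the data are given by stretch and by CpG, each CpG named by the forward-strand coordinate of its G.

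DNA methylation was read by capture bisulfite sequencing in Hep3B, a human hepatocellular carcinoma cell line. Capture reads only part of the genome. Shares of all CpGs below are therefore shares of the CpGs tested, not of every CpG of the genome. The parental cells gave 1 library. The other 2 libraries came from 2 Hep3B lines in which SOX4, a transcription factor of the SOX family, had been knocked out with CRISPR/Cas9, labelled #1 and #2 and called line 1 and line 2 here. The study's methods give puromycin in the medium of the knockout cells. Whether each line grew from 1 clone is not given in the sources used here, and whether SOX4 was edited was not checked here. The comparison asked whether cells without SOX4 had other methylation than their parents. The parental group has 1 library, so each test below compares libraries and not conditions.

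MicroRNAs are short RNAs, cut from hairpin precursors, that pair through a seed near their 5′ end with target messenger RNAs and repress them. The cluster on chromosome 19 is found only in primates, holds many near-identical hairpins between Alu repeats, and is made almost only in the placenta. There it is imprinted: the maternal copy is methylated at the CpG island that starts the cluster and is silent, and the paternal copy is unmethylated and transcribed. MIR371A, MIR372 and MIR373 are known from embryonic stem cells and germ cell tumours. After bisulfite treatment a methylated cytosine is still read as C and an unmethylated one is not, and the level of a CpG is the percentage of its reads that show C.

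Mature sequences are shown for the members of the interval and for hsa-miR-520a-3p, which shares its seed with some of them. They were taken from RefSeq (GRCh38.p14, used for names, order and sequence only) and are written 5′ to 3′ with the seed, bases 2 to 8, in capitals. All 50 microRNA genes listed for the interval were matched. In their genomic order MIR512-1 came first, MIR517A was number 24, MIR519D was number 25, and MIR371A, MIR372 and MIR373 were numbers 47, 49 and 50. The first 4 sequences come from the placental cluster and the last 3 from the genes after it. 
hsa-miR-512-3p: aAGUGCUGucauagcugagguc
hsa-miR-517a-3p: aUCGUGCAucccuuuagagugu
hsa-miR-519d-3p: cAAAGUGCcucccuuuagagug
hsa-miR-520a-3p: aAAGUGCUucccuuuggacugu
hsa-miR-371a-3p: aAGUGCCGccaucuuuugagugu
hsa-miR-372-3p: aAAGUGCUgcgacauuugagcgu
hsa-miR-373-3p: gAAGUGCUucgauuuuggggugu

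The 62 distinct mature sequences of the interval had 39 different seeds. The run AAGUGC stood within bases 1 to 9 of 19 of the 62, made by 21 genes, so most lacked it, and the sequences printed were not a sample of all. The seed AAGUGCU was shared by 7 of the 62, namely hsa-miR-372-3p, hsa-miR-373-3p and the 3p arms of miR-520a to miR-520e, so the genes after the cluster and genes within it carry the same seed. hsa-miR-517a-3p, one of the most abundant placental microRNAs, has the different seed UCGUGCA. In hsa-miR-512-3p and hsa-miR-371a-3p the run AAGUGC opens the sequence, and in hsa-miR-519d-3p it closes the seed. In all, 17 mature sequences were each made by more than 1 gene, and 29 of the 50 genes shared a mature sequence with another gene. The hairpins hold few CpGs: 38 of the 47 hairpins in the table had at least 1, none had more than 3, and the 47 held 67 together. Most of the 632 CpGs measured thus lie outside these hairpins.

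The depth behind these CpGs was above that of all CpGs tested. Context reads summed over all CpGs seen came to 104702738 (parental), 96987706 (line 1) and 133170621 (line 2), with 31044, 28688 and 38214 in the interval. In these sums and the shares below, a read over several CpGs counts once at each. The median CpG of the interval had 36, 34 and 44 reads, against 26, 24 and 32 over all CpGs. Relative to the parental library, the share of reads that fell in the interval was 0.998 in line 1 and 0.968 in line 2, beside 0.959 and 0.953 for the whole of chromosome 19. The complementary strand carried 81.7 to 82.2% of the reads of the interval. The ranges in parentheses after a level are its exact (Clopper-Pearson) 95% interval, which holds the error of counting alone, since copies made by PCR are not separate molecules.

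The island that starts the cluster was mostly methylated in all 3 libraries. Its mean level over 105 CpGs was 76.0% in parental cells, 70.4% in line 1 and 73.7% in line 2, with medians of 86.4%, 80% and 83.3%. Both lines lay below parental, line 1 by more than line 2. The knockout mean was 72.1 ± 2.29% (SD, n = 2 lines), and its difference from parental was -3.97 points, beside -3.23 points between line 1 and line 2. The means were not tested, since an exact permutation test of 1 library against 2 (one-sided) cannot give a p below 0.333.

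Within the island, levels changed over short distances. Of the 105 CpGs, 101 formed one run of 1614 bp from 54150822 to 54152435, in which no gap was over 200 bp; the other 4 lay at its far end, from 54155513 to 54155608. At 80% or more in the parental library were 66 CpGs, at 20% or less were 7, and 32 lay between. In line 1 the between class had 47 CpGs and the high class 53, and in line 2 they had 41 and 57. The low class had 5 CpGs in line 1 and 7 in line 2. Relative to parental, both lines thus had fewer CpGs in the high class and more in the middle, with no more in the low one. In all 3 libraries at once, 46 island CpGs were at 80% or more and 3 were at 20% or less, and none was at 5% or less in all 3, a state that 32.9% of all CpGs showed.

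**Figure D1:**
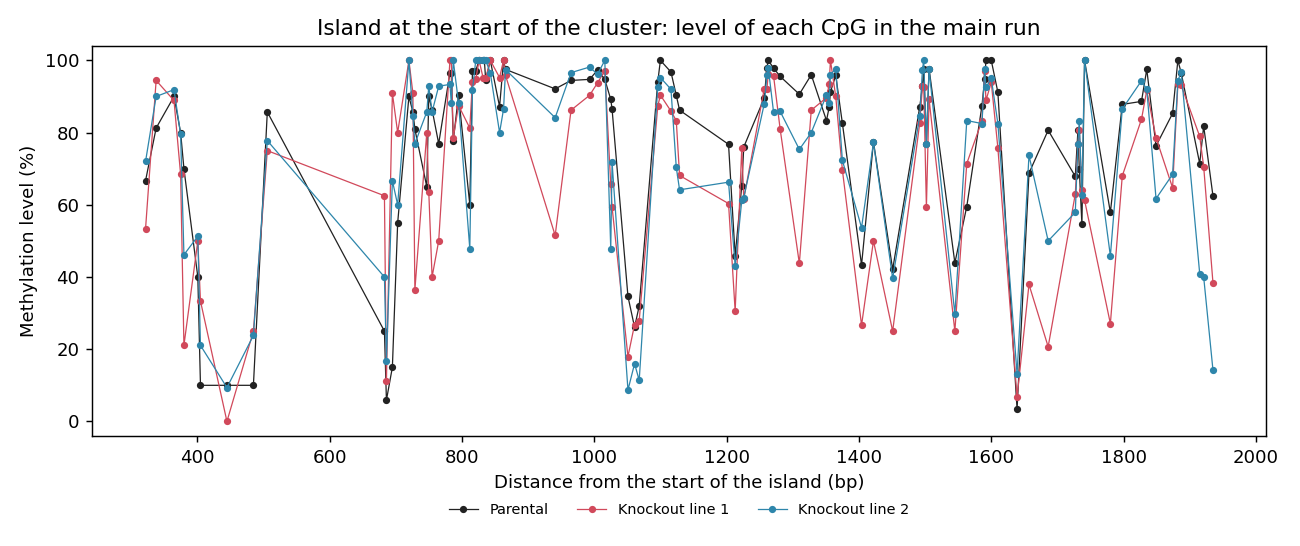
Methylation level (%) of each of the 101 CpGs in the main run of the island against the distance from the island's start (bp), 1 line with points per library. The 3 traces fall together at some CpGs and part at others, such as 54151195 (15% in parental, 90.9% in line 1, 66.7% in line 2). They keep near 95% over a stretch of 10 adjacent CpGs, whose means were 95.2 to 97.4%. That stretch was picked for levels of 80% or more in all 3 libraries.

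Stretches of adjacent island CpGs were picked for a level of 80% or more in all 3 libraries. Their likeness between the libraries thus follows from that choice. The mean over 10 CpGs, 54151316 to 54151366, was 97.4% in parental, 96.5% in line 1 and 95.2% in line 2. A second stretch of 5 CpGs, 54151828 to 54151865, had 90.7%, 91.8% and 90.5%. Another, the 5 CpGs from 54151757 to 54151781, had 96.2% in parental and lower values in both lines, 91.4% and 90.7%. By windows of 1 kb, the main part from 54151001 to 54152000, with 64 CpGs, had 80.9%, 75.8% and 78.6%. The next, from 54152001 to 54153000, had 28 CpGs and lower values in the lines, with 78.0%, 67.3% and 71.1%. The first window, from 54150001 to 54151000, had 9 CpGs at 50.9%, 48.3% and 53.9%. The 4 CpGs at the far end went the other way, from 41.6% in parental to 56.6% and 57.0%.

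Single CpGs of the island passed the test. At each CpG, methylated and unmethylated reads of a pair of libraries were set against each other by Fisher's exact test (2-sided), and p was adjusted by Benjamini and Hochberg's method over the 2744301 CpGs. A call required an adjusted p below 0.05 together with 25 points or more of difference. In line 1 against parental, 4 island CpGs of 105 were called lower (3.81%) and 2 higher (1.90%). Of all CpGs, 3.65% were called lower and 0.484% higher. The share called lower was thus near that of all CpGs, and the share called higher rests on 2 CpGs. In line 2 against parental, 1 was called lower (0.952%) and none higher, where the shares of all CpGs were 0.54% and 0.0628%.

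The CpG at 54152186 had the largest fall. It was methylated in 25 of 31 reads in parental (80.6%, interval 62.5 to 92.5%), 6 of 29 in line 1 (20.7%, 7.99 to 39.7%), and line 2 had 20 of 40 (50%, 33.8 to 66.2%). Line 2 lay between the others, and the adjusted exact p was 0.00038 for line 1 and 0.38 for line 2. The CpG at 54152241, a short distance on, kept its level in line 2 and lost it in line 1: all 35 parental reads and all 39 reads of line 2 were methylated, while line 1 had 19 of 31. There line 1 differed from parental (adjusted Fisher exact p = 0.00138) and from line 2 (adjusted Fisher exact p = 0.003). That CpG was named after its values were seen. At 54151525 the order was turned, with 33 of 37 reads methylated in parental, 21 of 32 in line 1 and 22 of 46 in line 2. That CpG passed the test in line 2 alone (adjusted Fisher exact p = 0.0142, and 0.255 in line 1); line 1 and line 2 were not called different there. With every library thinned to the smallest depth at each CpG the call was lost (adjusted Fisher exact p = 0.0714).

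The remaining falls, 54151441 and 54151810, were of the same kind in line 1 and small in line 2. The first had 92.1% in parental, 51.5% in line 1 and 84.1% in line 2, and the second had 90.6%, 43.8% and 75.3%. Both had been highly methylated in parental. The rises were at 54151195, where few reads were available (3 of 20, 10 of 11 and 6 of 9) and the call was lost on thinning, and at 54155608, the best covered CpG of the island. The last had 21 of 58 reads methylated in parental (36.2%, 24.0 to 49.9%), 39 of 57 in line 1 (68.4%, 54.8 to 80.1%), and line 2 had 40 of 68 (58.8%, 46.2 to 70.6%). Both lines were above parental there, and line 1 passed (adjusted Fisher exact p = 0.0195) while line 2 did not (0.389).

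For comparison, the windows of chromosome 19 most like the island were sought among 2554 windows of 1 kb outside the interval with at least 20 CpGs. The nearest by the distance between the 3 levels, 46526001 to 46527000, had 76.9%, 70.3% and 72.3%. The next were 35715001 to 35716000 and 36736001 to 36737000, whose levels were 74.5%, 69.1% and 72.1%, and 78.6%, 70.1% and 75.2%. These 3 windows were picked for their likeness, so they show only that such levels occur elsewhere on the chromosome. How common such windows are was not counted, and the likeness says nothing of shared control.

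The body of the cluster was a mosaic of methylated and unmethylated CpGs, and its mean was lowest in line 1. The mean over its 473 CpGs was 45.1% in parental, 37.3% in line 1 and 42.1% in line 2, with an SD over CpGs of 33.5 to 34.6%. The difference from parental was -7.74 points in line 1 and -3.01 points in line 2. Taken over the 2 lines, the mean was 39.7 ± 3.35% (SD), which differed from parental by -5.38 points. Line 1 minus line 2 was -4.73 points, so the lines differed from each other almost as much as their mean differed from parental.

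Over all CpGs the same means were 44.1%, 40.0% and 41.9%, with differences of -4.08 points in line 1 and -2.14 points in line 2. The difference of line 1 in the body was thus larger than that over all CpGs, and the neighbouring 160 kb on either side gave smaller ones. In the 160 kb before the interval (353 CpGs) the levels were 62.3%, 59.2% and 61.2%, and in the 160 kb after it (638 CpGs) they were 38.5%, 35.4% and 35.9%. These are differences of means with no test, and CpGs on the same fragments are not independent. Reads of each strand alone gave the same order of libraries in the body, with 42.4%, 34.1% and 36.1% on the forward strand (147 CpGs) and 44.6%, 37.3% and 41.8% on the complementary strand (450 CpGs).

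**Figure D2:**
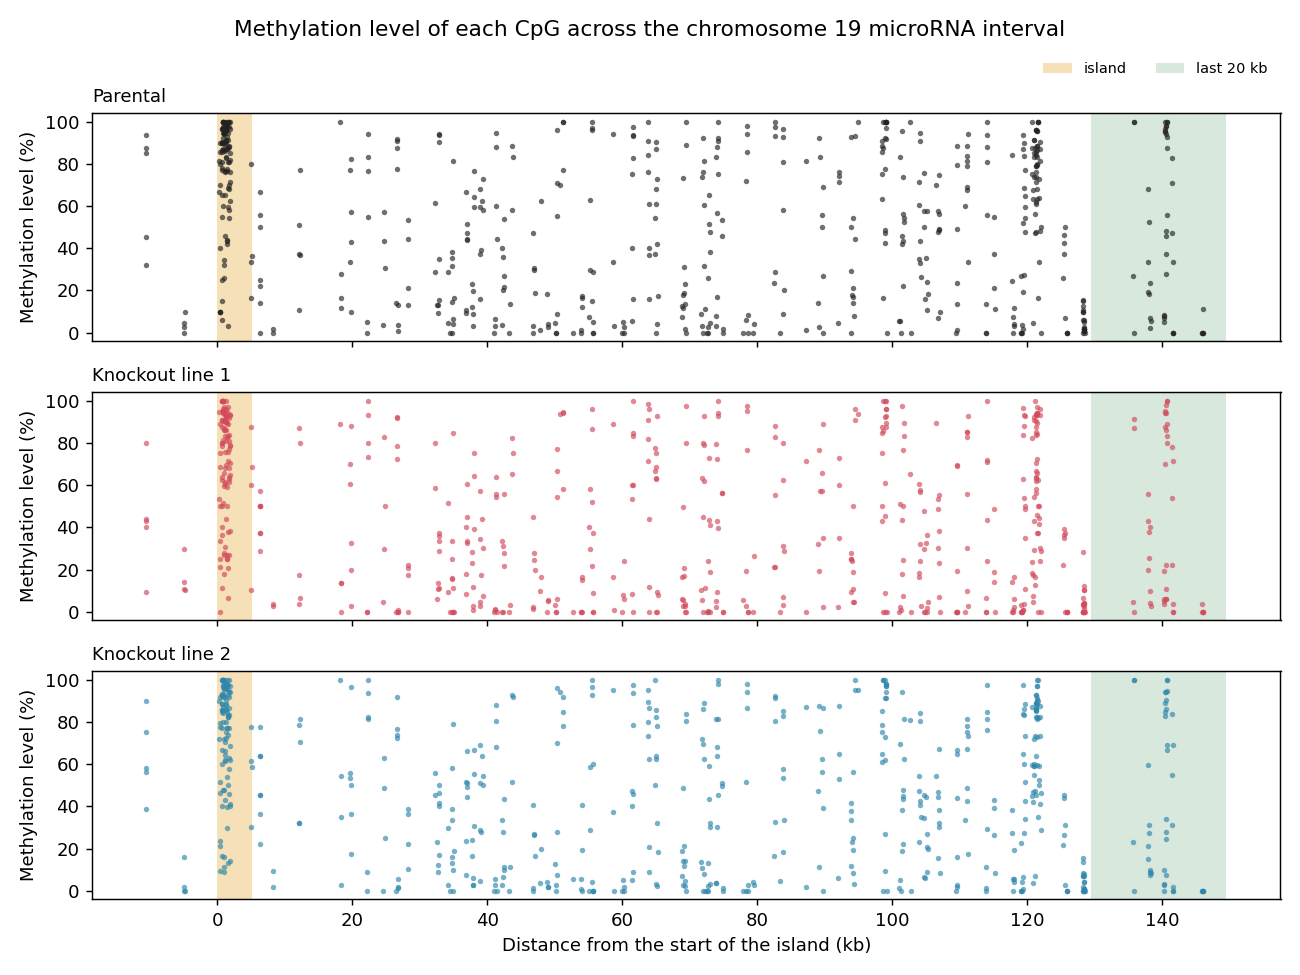
Methylation level (%) of each of the 632 CpGs against the distance from the start of the island (kb), with 1 panel per library and the island and the last 20 kb shaded. The island is dense and mostly high in each panel, and the body holds CpGs at all levels from 0 to 100%.

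Intermediate levels were common in the body. Of its 473 CpGs, 192 (40.6%) lay between 20 and 80% in parental, 183 (38.7%) in line 1 and 202 (42.7%) in line 2. Over all CpGs the share was 18.7%, 18.1% and 20.2%. The 160 kb before the interval came nearer to the body, with 32.3%, 34.3% and 38.2%. In the 160 kb after the interval the share was 22.9%, 19.9% and 22.1%. The class at 20% or less had 169 CpGs in parental, 203 in line 1 and 170 in line 2, and the class at 80% or more had 112, 87 and 101 CpGs. The low class was thus larger in line 1, and of near equal size in parental and line 2. In all 3 libraries at once, 148 body CpGs were at 20% or less and 59 were at 80% or more. At 5% or less in all 3 libraries were 70 of the 632 CpGs of the interval, 62 of them among the 473 of the body. Of all CpGs, 32.9% showed that state, so it was less common here. No methylated read in any library was found at 30 CpGs of the interval, a count given without its share over all CpGs.

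**Figure D3:**
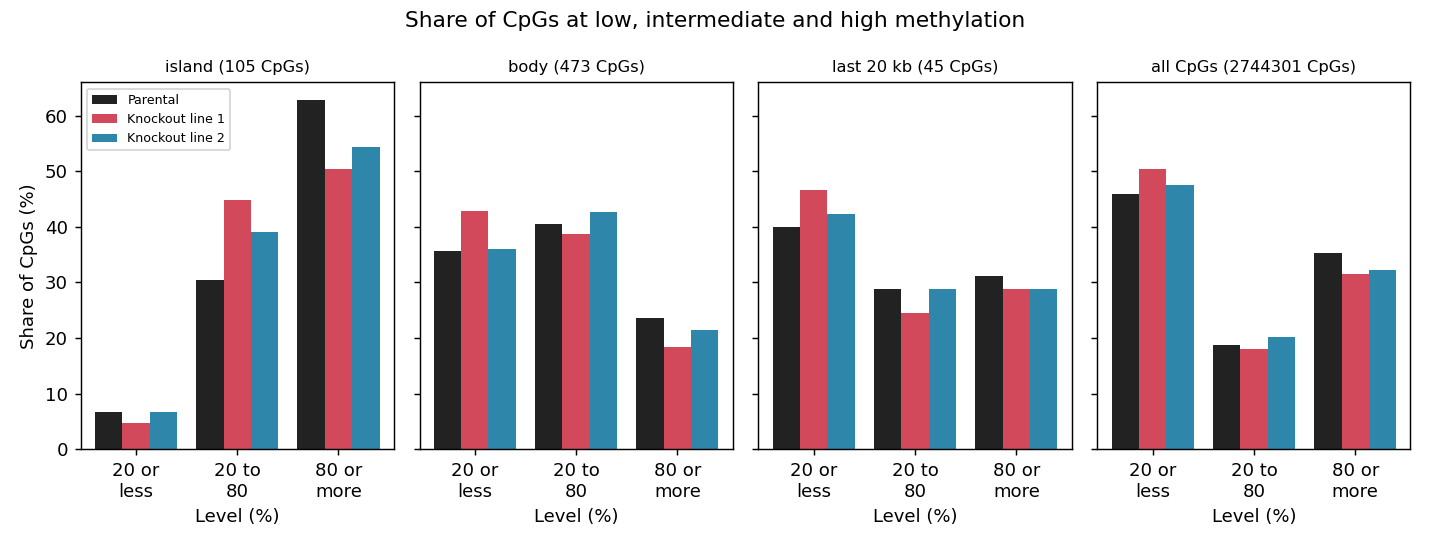
Share of CpGs (%) at 20% or less, between 20 and 80%, and at 80% or more, for the island (105 CpGs), the body (473), the last 20 kb (45) and all CpGs (2744301), 1 bar per library. The body has 38.7 to 42.7% of its CpGs in the middle class, against 18.1 to 20.2% of all CpGs. The 160 kb before the interval, not drawn, had 32.3 to 38.2%, and the 160 kb after it had 19.9 to 22.9%.

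Close neighbours in the body often differed. Among 288 pairs of adjacent CpGs at most 50 bp apart, the median difference in level was 13.1 points in parental, 15.1 in line 1 and 13.6 in line 2, against 2.17, 1.53 and 2.27 points over all CpGs. Differences over 50 points were found at 27, 43 and 29 of these pairs. That is 9.38%, 14.9% and 10.1%, beside 3.08%, 4.03% and 2.86% of the pairs over all CpGs. The jumps were more frequent in line 1 than in the other libraries, in the body as over all CpGs.

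A few stretches of adjacent body CpGs were picked because each CpG was in the low class, or each in the high class, in every library. That they were even between the libraries thus follows from the choice. The 17 CpGs from 54278776 to 54279020, at the far end of the body, were unmethylated, with means of 4.78%, 3.62% and 3.37%. The 9 CpGs from 54271848 to 54271910 were methylated in every library (91.4%, 91.0% and 92.0%), and so were the 6 from 54249505 to 54249563 (98.1%, 93.6% and 95.8%). The CpG of the body with the most reads, 54188231, had one level in the 3 libraries: 46 of 199 reads (23.1%, 17.4 to 29.6%), 44 of 190 (23.2%, 17.4 to 29.8%) and 53 of 222 (23.9%, 18.4 to 30.0%).

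CpG by CpG, line 1 was called lower than parental at 48 CpGs of the interval and higher at 6. The 48 were 7.59% of the 632, beside the 3.65% of all CpGs given above, and the 6 higher stood beside 0.484%. Of the lower calls, 41 were in the body, 4 in the island and 3 in the last 20 kb. Their falls ranged from -85.4 to -25.7 points with a median of -42.3 points, and 23 of the 48 had been at 80% or more in parental.

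Line 2 was called lower than parental at 7 CpGs of the interval, 6 in the body and 1 in the island, and higher at 0. The 7 were 1.11% of the 632, against 0.54% of all CpGs called lower and 0.0628% called higher in this comparison. At an unadjusted p under 0.05 line 2 had 65 lower and 22 higher CpGs of the 632, where the shares of all CpGs were 5.22% and 1.46%. Line 1 had 117 lower and 24 higher, where the shares of all were 9.37% and 1.9%. The lines also differed from each other: line 1 was called lower than line 2 at 15 CpGs (2.37%) and higher at 1 (0.158%), against 0.831% and 0.141% of all CpGs.

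**Figure D4:**
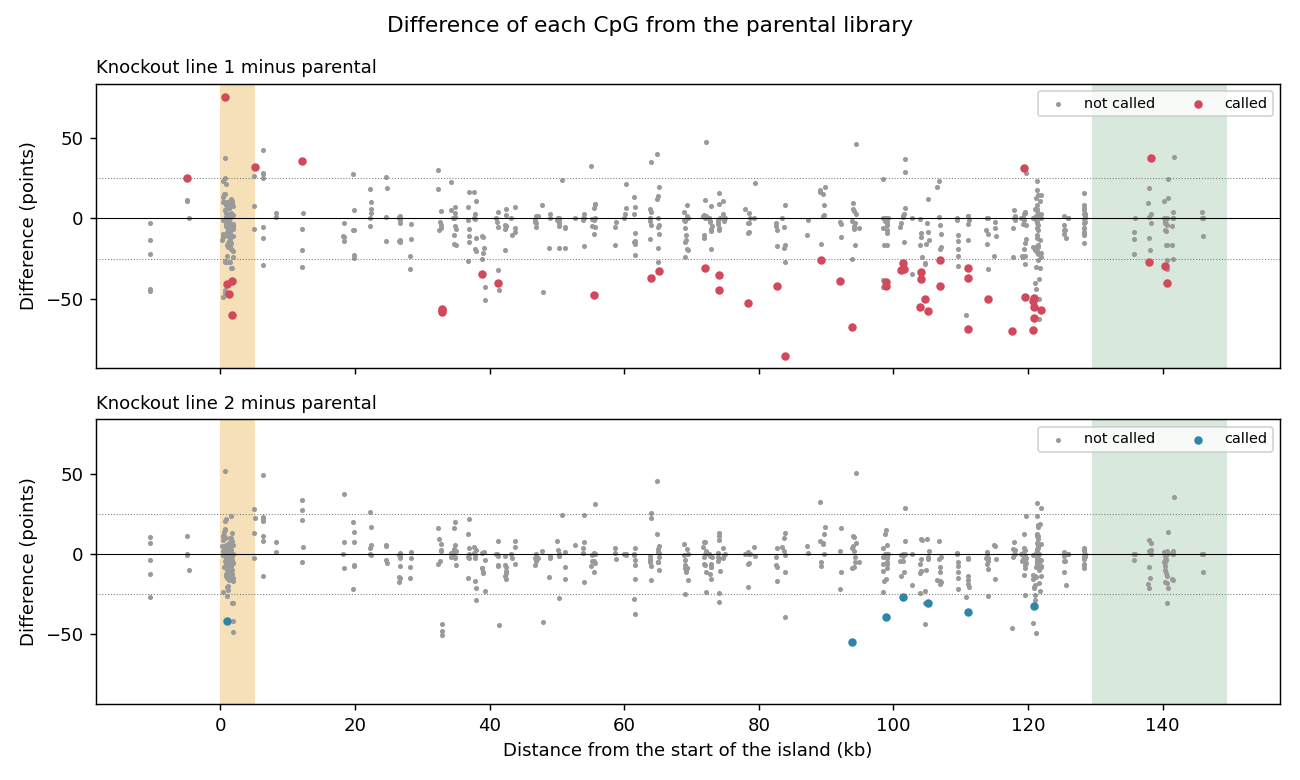
Difference from the parental library (percentage points) of each CpG against the distance from the start of the island (kb), for line 1 above and line 2 below, with called CpGs as large coloured points. Line 1 has 48 called CpGs below 0 and 6 above, and line 2 has 7 below and 0 above.

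The level of a CpG in line 2, which the comparison of line 1 with parental does not use, was also taken to sort the body. The 202 body CpGs that line 2 had between 20 and 80% had a mean of 54.1% in parental and 41.6% in line 1, a difference of -12.6 points, and 31 of them (15.3%) were called lower. Over all CpGs of that class the difference was -13.3 points, and 14.1% were called lower. At 80% or more in line 2, 5.94% of 101 body CpGs were called lower, against 1.03% of all. At 20% or less it was 2.35% of 170, against 0.971% of all. The shares at the ends rest on 6 and 4 called CpGs of the body, and depth differed too: the parental median was 26 reads in the high class of the body and 55.5 in the low one, against 23 and 28 over all CpGs of these classes. The part of depth in these shares was not tested. In the middle class the medians were 40 and 26 reads. These are counts with no test, since neighbouring CpGs share reads.

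A CpG lower in both lines was called at 6 positions, all in the body (0.949% of the 632), beside 0.452% of all CpGs. None was higher in both, and over all CpGs 0.0435% were. Both comparisons share the parental library. The 6 lay between 54244411 and 54271426, in the part of the body nearest to its far end. Thinned to the smallest depth, 54244411 and 54255638 remained called in both lines, and the other 4 were called in line 1 alone.

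At 54244411 the fall was large in both lines. It had 25 of 27 reads methylated in parental (92.6%, 75.7 to 99.1%), 7 of 28 in line 1 (25%, 10.7 to 44.9%), and line 2 had 11 of 29 (37.9%, 20.7 to 57.7%). Neither knockout interval reached the parental one, with adjusted Fisher exact p of 2.79e-05 and 0.00574. At 54249462 the lines were alike, with 18 of 37 reads in parental (48.6%), 4 of 45 in line 1 (8.89%) and 4 of 43 in line 2 (9.30%), and adjusted Fisher exact p of 0.00392 and 0.0207. The CpG at 54251985, with the most reads of the 6, also had like levels in both lines. They were 58 of 127 reads in parental (45.7%, 36.8 to 54.7%), 20 of 111 in line 1 (18.0%, 11.4 to 26.4%), and line 2 had 31 of 163 (19%, 13.3 to 25.9%), with adjusted Fisher exact p of 0.000455 and 0.000922.

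The other 3 were graded, with line 2 between parental and line 1. At 54255638, 45 of 78 parental reads were methylated (57.7%, 46.0 to 68.8%), none of 100 in line 1 (upper bound 3.62%) and 20 of 74 in line 2 (27%, 17.4 to 38.6%). The adjusted Fisher exact p was 5.44e-18 for line 1, 0.0258 for line 2 and 7.77e-06 for line 1 against line 2, so all 3 libraries differed. The same held at 54261601, with 78 of 99 reads (78.8%, 69.4 to 86.4%), 6 of 61 (9.84%, 3.70 to 20.2%) and 41 of 96 (42.7%, 32.7 to 53.2%). Here the adjusted Fisher exact p were 1.77e-15, 0.000206 and 0.00175 in the same order. At 54271426 the levels were 62 of 68 reads (91.2%), 12 of 41 (29.3%) and 46 of 78 (59.0%), with adjusted Fisher exact p of 6.33e-09 and 0.00329; line 1 and line 2 were 29.7 points apart there without passing (0.153).

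Among the falls named by the rule given in the methods, 54183404, 54183416 and 54183422 stood close enough together to share reads. They had levels of 90.5%, 94.1% and 93.8% in parental, 33.3%, 37.5% and 35.7% in line 1, and 40%, 46.2% and 50% in line 2. Line 1 passed the test at all 3, with adjusted Fisher exact p of 0.0147, 0.0205 and 0.0316, and line 2 at none, on 12 to 15 reads. The 3 calls were lost on thinning (adjusted Fisher exact p = 0.152, 0.399 and 0.174). Another fall named by the rule, far from these, was 54268181, with 16 of 19, 1 of 7 and 8 of 21 reads methylated (adjusted Fisher exact p = 0.0463 in line 1). Its 7 reads in line 1 allow a level of up to 57.9%, and its call was lost on thinning.

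The largest fall of the interval was at 54234372, named after its values were seen. Its level was 92.6% in parental (25 of 27 reads), 7.14% in line 1 (2 of 28) and 53.5% in line 2 (23 of 43). Line 1 differed from parental (adjusted Fisher exact p = 1.06e-08) and from line 2 (adjusted Fisher exact p = 0.00725), and line 2 did not pass against parental (0.0577), although it did at a minimum of 10 reads (0.0479) or 20 reads (0.0338) per CpG. Line 1 was called higher at 2 of the 473 body CpGs (0.423%), near the 0.484% of all CpGs. At 54269838, a well covered CpG, 73 of 140 reads were methylated in parental (52.1%, 43.5 to 60.7%), 124 of 148 in line 1 (83.8%, 76.8 to 89.3%), and line 2 had 124 of 192 (64.6%, 57.4 to 71.3%), with line 1 called (adjusted Fisher exact p = 1.14e-06). At 54162599 both lines were above parental, with 51.1%, 87.1% and 78.6%, and line 1 was called (adjusted Fisher exact p = 0.0306, and 0.235 on thinning). The single CpG at which line 1 was called above line 2 was 54222668, where 6 of 19, 15 of 19 and 2 of 25 reads were methylated (adjusted Fisher exact p = 0.00106 between the lines); neither line was called there against parental. It too was named after its values were seen.

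Runs of at least 5 CpGs with gaps of at most 200 bp, a rule chosen after the values were seen, gave 41 runs with 397 CpGs in the body. Their parental means spanned 5.47 to 76.4%. Line 1 was below parental in 37 of the 41 and line 2 in 29, and line 2 lay between the others in 20. No share over all runs stands beside these counts. Of all windows of 1 kb, 68.2% were below parental in line 1 and 64.1% in line 2. The run counts are thus a description only. The largest run, 50 CpGs from 54271165 to 54272483, had 73.9%, 58.0% and 69.5%, with 6 CpGs called lower in line 1, 1 in line 2, and 3 lower in line 1 than in line 2. Next came 21 CpGs from 54248936 to 54249649, at 76.4%, 66.4% and 71.5%. Both were methylated runs with their lowest mean in line 1.

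In some short runs line 1 was further below parental. The 8 CpGs from 54189416 to 54189824 had 51.7% in parental, 24.7% in line 1 and 43.7% in line 2, and the 8 from 54254389 to 54254684 had 56.9%, 33.5% and 51.0%. In these, line 2 differed from parental by -8.08 and -5.94 points, less than line 1 did. In the run from 54261514 to 54261710, also of 8 CpGs, line 2 was lower too, with 74.5%, 55.5% and 60.5%. Opposite to these, the first run after the island, 7 CpGs from 54156788 to 54156877, had 33.4%, 44.4% and 50.6%. No CpG of that run passed the test in either line. The run from 54162580 to 54162726 was higher in line 2 alone, with 42.5%, 39.0% and 58.9% over 5 CpGs.

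In windows of 1 kb with at least 5 CpGs, line 1 was below parental in 46 of the 52 windows of the interval (88.5%) and line 2 in 39 (75.0%). Over all 140947 windows these shares were 68.2% and 64.1%. The median difference was -5.15 points in line 1 and -4.18 points in line 2, against -2.06 and -1.11. Line 1 was 25 points or more below parental in 2 of the 52 windows, against 4.53% of all windows, and above in none, against 0.446%. Those were 54189001 to 54190000, with 51.7%, 24.7% and 43.7%, and 54140001 to 54141000, before the island, with 68.7%, 43.2% and 63.7%. Line 2 passed 25 points in 0 of the 52 windows, against 0.922% of all, and both lines together in 0, against 0.725%. Most windows of the interval were thus below parental by little, and none by 25 points in both lines. The 52 windows are too few to set these small counts apart from the shares of all windows.

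The last 20 kb, set aside for MIR371A, MIR372 and MIR373, had the same mean in both knockout lines. Its 45 CpGs had 44.5% in parental, 40.2% in line 1 and 40.3% in line 2. The mean of the lines, 40.3 ± 0.0647% (SD, n = 2), differed from parental by -4.23 points, and line 1 minus line 2 was -0.0915 points. The likeness was one of means and not of CpGs, since single CpGs of the lines went apart. It also rested on both strands: on the forward strand alone, with 7 CpGs, line 1 had 30.5% and line 2 had 21.5% around 28.7% in parental, while the complementary strand (44 CpGs) had 40.9%, 41.7% and 45.4%.

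The CpGs here split by level. In parental 18 were at 20% or less, 14 at 80% or more and 13 between; in line 1 the counts were 21, 13 and 11, and in line 2 they were 19, 13 and 13. The run of 5 CpGs from 54296351 to 54296526 had 2.22%, 0.741% and 0%. The run of 7 from 54291943 to 54292112 was intermediate and like in the 3 libraries (33.5%, 32.7% and 34.4%), and the run of 9 from 54288363 to 54288753 had 25.6%, 26.5% and 21.0%.

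The largest run of this stretch, 20 CpGs from 54290738 to 54291230, had mean levels of 65%, 57.8% and 58.1%, and held sharp steps. Its first 4 CpGs, up to 54290809, were low (7.06%, 8.54% and 3.98%). After a gap of 90 bp came 7 CpGs, 54290899 to 54291018, at 96.7% in parental, 89.3% in line 1 and 88.7% in line 2, with both lines below parental at 7 of 7. The 4 CpGs that followed, 54291051 to 54291114, had 39.7%, 11.2% and 23.5%, again with both lines below parental at 4 of 4. The last 5, up to 54291230, were high in the 3 libraries (87.2%, 90.4% and 86.1%) on 5 to 19 reads. CpGs of 1 group lie on the same fragments, so the 7 and the 4 are not separate observations. The groups were cut at the steps in level, so their bounds rest on the values shown. In the second group parental was at 94.1 to 100%, which left little room above it. Line 1 and line 2 were below parental at 2 and 3 CpGs of the first group, and at 2 and 1 of the last. All these counts use the single parental library and have no share over all CpGs beside them.

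**Figure D5:**
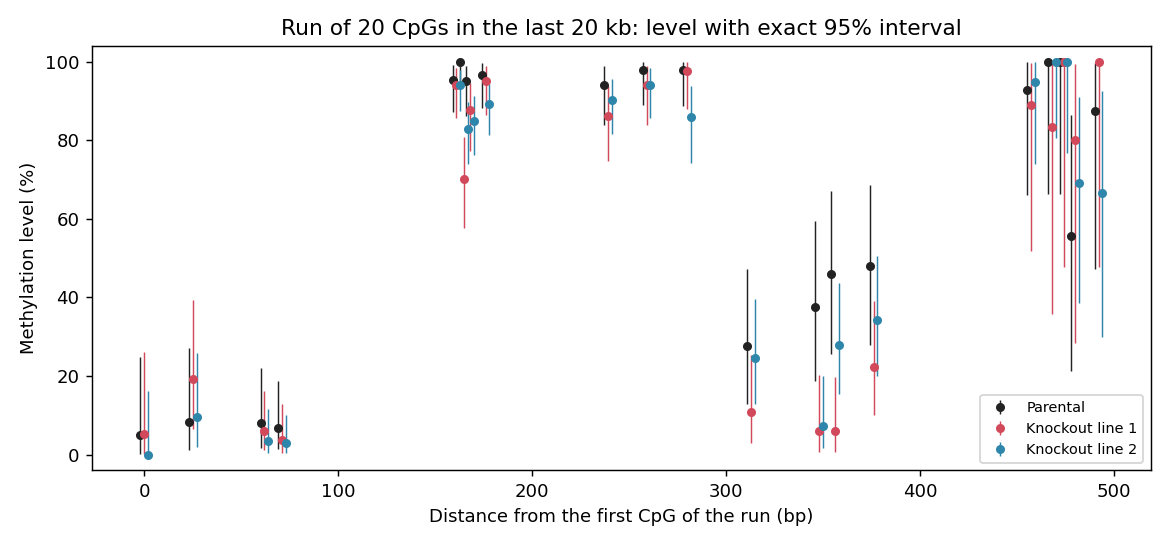
Methylation level (%) of each of the 20 CpGs from 54290738 to 54291230 against the distance from the first (bp), with exact 95% intervals; points of the 3 libraries are moved sideways by a few bp to be seen. The second group of 7 CpGs is at 70.1% or more in every library, and in the third group of 4 the lines lie below parental.

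In the last 20 kb, 3 of the 45 CpGs were called lower and 1 higher in line 1, where 3.65% and 0.484% of all CpGs were, and 0 were called in line 2, where 0.54% of all were called lower. At an unadjusted Fisher exact p under 0.05, line 2 had 5 lower and 0 higher there, and line 1 had 6 lower and 2 higher. The shares of all CpGs were 5.22% and 1.46% in line 2, and 9.37% and 1.9% in line 1. At 54290903 parental was fully methylated, on 62 of 62 reads (94.2 to 100%), line 1 had 47 of 67 (70.1%, 57.7 to 80.7%) and line 2 had 82 of 99 (82.8%, 73.9 to 89.7%). Both lines were below parental there; line 1 passed (adjusted Fisher exact p = 4.28e-05), and line 2 had an adjusted Fisher exact p of 0.0376 with a difference of -17.2 points, under the 25 points required. At 54291094, in the third group, 11 of 24, 2 of 34 and 12 of 43 reads were methylated, with line 1 called (adjusted Fisher exact p = 0.02, and 0.153 on thinning).

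The other calls lay in the first run. At 54288484 parental had 52 of 99 reads methylated (52.5%, 42.2 to 62.7%), line 1 had 25 of 99 (25.3%, 17.1 to 35.0%) and line 2 had 34 of 109 (31.2%, 22.7 to 40.8%), with both lines lower and line 1 called (adjusted Fisher exact p = 0.00495). At 54288746 both lines lay above parental, with 1 of 41, 14 of 35 and 5 of 52 reads methylated, and line 1 was called (adjusted Fisher exact p = 0.00244). The best covered CpG, 54288502, had 20 of 108 (18.5%), 40 of 106 (37.7%) and 32 of 116 (27.6%), a difference of 19.2 points in line 1, under the size required. Called falls and rises thus lay in the same run.

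Before the island, 9 CpGs had means of 40.1%, 31.3% and 37.4%. The single call there was a rise at 54145630 in line 1, with 3 of 62, 20 of 67 and 15 of 93 reads methylated (adjusted Fisher exact p = 0.00611). Line 2 had 16.1% (9.32 to 25.2%) there, between parental at 4.84% and line 1 at 29.9%. On thinning the difference of line 1 was 24.2 points, under the 25 required.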

How the data were processed

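Per the labels, 500 ng of genomic DNA of each culture was sheared to 150 to 200 bp, captured with the TruSeq Methyl Capture EPIC probes, treated with bisulfite, amplified and sequenced. The deposited files give counts of total, context and methylated reads for each CpG cytosine and strand, not normalized, and a methylation level that the authors gave as a fraction of context reads. The submitters' processing notes name GRCh37 (hg19). The aligner, the caller, the filters and the handling of duplicates and of reads that match several places are not given in the sources used here, and the last could matter for near-identical hairpins and Alu repeats.

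Reads of the 2 strands were summed, and CpGs with at least 5 context reads in all 3 libraries were kept. Levels are percentages of context reads. Fisher exact tests were adjusted (Benjamini-Hochberg) over all 2744301 CpGs, called at adjusted p under 0.05 and 25 points or more. Means weight CpGs equally. Named CpGs were, per stretch, up to 5 rises and 5 falls among CpGs called in at least 1 line, ranked on whichever line moved less from parental, and the CpG with the most reads. CpGs called in both lines, 54152241, 54222668 and 54234372 were named after their values were seen. The interval, the gene list and the rules were chosen with earlier results of these data known. Alternatives covered coverage minimum (10, 20), difference (10, 50 points), adjusted p under 0.01, thinning to equal depth, read weighting, single strands, windows of at least 10 CpGs and leaving out each line. Scripts ran under Python 3.11.15 with numba 0.67.0, scipy 1.17.1, matplotlib 3.10.9, pandas 2.3.3 and numpy 2.4.6.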

Additional observations from a re-analysis of the deposited data

How the results depend on the processing

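No paired analysis was possible because the labels number 2 knockout lines and give no number to the single parental library. Over 375 alternative values, no difference of a described CpG and no difference of the mean over the lines changed sign. These means hide 1 change of a single line: on the forward strand of the last 20 kb, line 1 was above parental (30.5% against 28.7%). The calls of line 1 in the interval ranged from 19 to 72. The share of all CpGs called in line 1 moved with the setting too. It was 4.13% beside the 54 calls of the main setting, and 6.54% beside 49 calls of 435 CpGs at a minimum of 20 reads. The range alone thus says nothing of the interval against all CpGs. With a difference of 10 points, the calls were 11 in line 2, 26 between the lines and 10 in both lines, against 0.81%, 1.26% and 0.674% of all CpGs. Then 5 of 52 windows of 1 kb passed in both lines (4 lower, 1 higher), beside 10.6% of all windows. With 50 points they were 19 in line 1, 1 in line 2, 2 between the lines and 1 in both (1.67%, 0.107%, 0.218% and 0.0743% of all). An adjusted p under 0.01 left 4 in line 2 and 9 between the lines (0.294% and 0.522%), and thinning to the smallest depth left 2 in line 2, 10 between the lines and 2 in both (0.267%, 0.496% and 0.235%). The island's mean difference was -6.34 points at a minimum of 20 reads and -6.43 weighted by reads. That of the last 20 kb was -6.29 and -6.37 at minimums of 10 and 20 reads, -4.51 weighted by reads, -2.73 on the forward strand alone (7 CpGs) and -4.04 on the complementary strand. The cause of these shifts was not tested. Leaving out either line gave -5.59 to -2.36 points for the island, -7.74 to -3.01 for the body and -4.27 to -4.18 for the last 20 kb, and 0 to 2 windows; line 1 alone gave the larger falls. For single CpGs, 46 alternative values no longer passed, many of them because of the 50 points, and 3 newly passed. With 36 reads at the median CpG, single CpGs carry wide intervals, and no value has a biological error for parental cells.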
